A study of Danio rerio with 16 samples.

Results

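Connexins are membrane proteins that assemble into gap junctions, the channels through which ions and small molecules move directly between neighbouring cells. Pannexins have a similar fold but mostly form channels to the outside of the cell, through which ATP is released to purinergic receptors. In fish and mammals each tissue uses its own set of these genes: the lens, the retina, neurons, myelin-forming glia, heart, skin and bone each have known members, and in zebrafish mutations in single connexins alter fin length or the striped colour pattern. Connexins are sorted by sequence into alpha (GJA), beta (GJB), gamma (GJC), delta (GJD) and epsilon (GJE) classes.

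The genes were chosen by symbol in the deposited expression tables, taking names that begin with cx, gja to gje or panx followed by a number. The rule found 42 of 32440 gene IDs. Of these, 39 are members of the families, namely 35 connexins (18 alpha, 8 beta, 4 gamma, 4 delta and 1 epsilon) and 4 pannexins. The other 3 are CX3CR1 entries, chemokine receptors taken only for their spelling, and they are left out of every count. All 39 IDs occur in the annotations of all libraries, although 9 carry another symbol in the tables of the 24 hpf embryos (cx30.3 is called cx33.8 there).

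RNA sequencing was done on wild-type zebrafish of the AB strain, with no treatment given. There were 3 biological samples of whole embryos at 24 hours post fertilization (hpf) and 1 library each of pooled whole embryos, whole larvae aged 5 days, whole adult head and whole adult tail. The pool is titled 16-36 hpf while its stage label runs from 16 somites to 24 hpf. It is called the pool here, and neither the sex or number of adults nor the number of embryos per sample is given. Values at 24 hpf are means ± SD (n = 3), and every other group is a single library with no replicate error.

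Gene counts came to between 40899061 and 44962951 per library at 24 hpf and between 8017208 and 11045403 in the others. CPM denotes the count on shared genes divided by the TMM-scaled library size, on the usual CPM scale, used here to compare a gene between libraries, and FPKM the deposited value per kilobase, used to compare genes with each other. A count of 0 allows up to 3 counts, or 0.273 CPM in the pool, 0.304 in larvae, 0.315 in the head, 0.337 in the tail and 0.0279 over the 3 libraries of 24 hpf together. Only 17 of the 39 genes have equal boundaries in both annotations, and the 24 hpf libraries are the only deeply sequenced ones, so a comparison with 24 hpf cannot be told apart from annotation and depth. In whole tissues, fewer cells of a type and less RNA per cell cannot be told apart either.

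Photoreceptor and neuronal markers matched the label of the adult head, with sums of 5467 and 1816 CPM there against 2.92 and 27.8 in the tail. Heart markers were also highest in the head, at a sum of 323 CPM, against 13.6 in the tail and 70.97 to 148 elsewhere. The tail library held muscle genes (10858 CPM) and epidermal genes (4948 CPM), but also 7 of 7 oocyte and egg coat genes at a sum of 2522 CPM, against 1.92 to 8.78 CPM in the other 6 libraries. Its liver and plasma genes summed to 21163 CPM against 988 to 6931 CPM elsewhere, mostly through vtg2 at 14051.5 and vtg4 at 4133 CPM. The 6931 CPM of the head also came mostly from these genes, with vtg2 at 4696 and vtg4 at 1104 CPM. In embryos and larvae vtg2 was at 0.110 to 0.709 CPM and vtg4 at 0 to 4.17 CPM. fabp10a of the same list was also highest in the tail, at 526 CPM. It was at 201 CPM in the head, 108 in larvae, 0.273 in the pool and 0.0282 to 0.588 at 24 hpf. By contrast, tfa of this list was at 2452 CPM in the tail, within its 24 hpf range of 1278 to 2700. The part of the oocyte, egg coat, plasma and liver genes in the tail and head values given below was not tested.

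A single connexin made up most of the family's transcripts in the embryo. The gamma connexin cx43.4, which is widely transcribed in early embryos and needed in Kupffer's vesicle for left-right asymmetry, held 64.7%, 70.1% and 64.6% of the summed FPKM of the 39 genes in the 24 hpf samples, and 58.0% in the pool. It was again first in the adult tail, with 49.3%, but only second in the larva with 13.4%. The alpha connexin cx43, the counterpart of mammalian GJA1 and the gene behind the short fin mutants, led in the larva with 26.6% and in the head with 32.28%. Behind it in the head came the beta connexins cx35.4 with 13.4% and cx34.4 with 10.1%. In the tail the next ones were cx44.2 with 16.2% and cx32.3 with 8.52%.

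The number of genes that share the family's transcripts differed in the same way. At 24 hpf 4 or 5 genes, and in the pool 7, sufficed for 90% of the summed FPKM, against 17 in larvae, 16 in the head and 8 in the tail. Between 10 and 12 genes reached 1 FPKM in a 24 hpf library, 15 did in the pool, 22 in larvae, 24 in the head and 12 in the tail. Summed FPKM itself was 313 ± 5.09 at 24 hpf, 243 in the pool, 168 in larvae, 216 in the head and 194 in the tail. Summed CPM was 1030 ± 76.0 at 24 hpf, 668 in the pool, 377 in larvae, 508 in the head and 455 in the tail. Over all genes, ratios to 24 hpf ran higher by FPKM than by CPM, as given below. The counts of genes at 1 FPKM carry the same limit. By CPM, 17 of the 39 genes were at their highest in the head, 8 in larvae, 7 at 24 hpf, 5 in the tail and 2 in the pool. The same split over all genes was not computed, so these counts cannot be read as particular to the family.

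**Figure D1:**
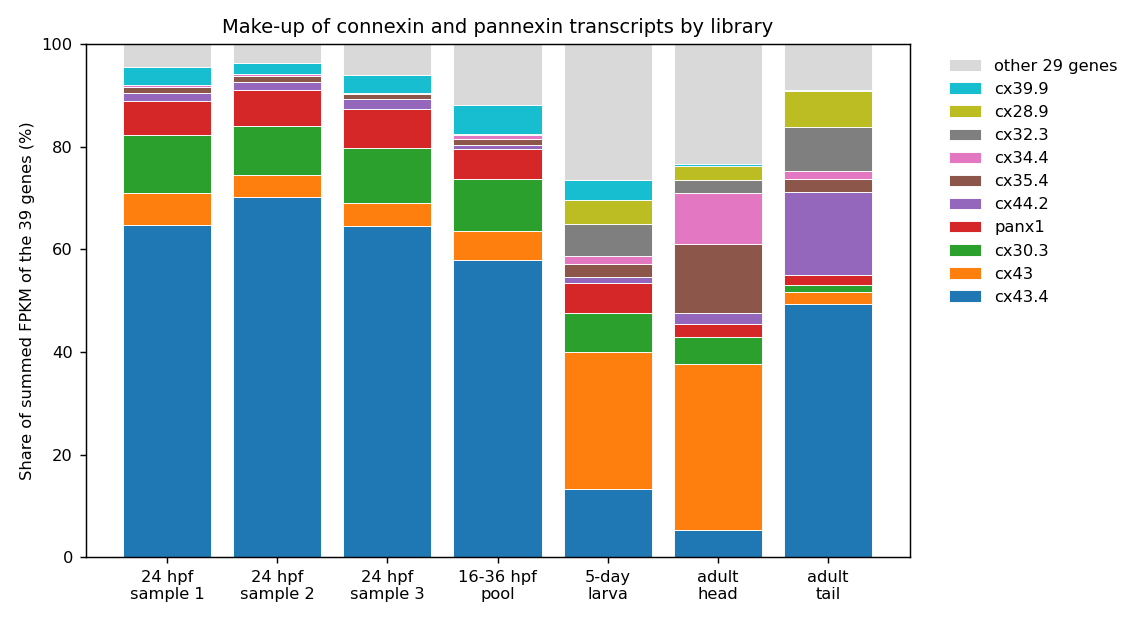
Stacked bars give the share of the summed FPKM of the 39 connexin and pannexin genes (vertical axis, percent) held by 10 named genes and by the other 29, in each of the 7 libraries (horizontal axis). cx43.4 holds 64.6% or more in each 24 hpf library and 49.3% in the tail, while the larva and the head are spread over more genes and led by cx43.

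By sequence class, the summed FPKM of the alpha connexins was 31.6 ± 6.52 at 24 hpf and 42.2, 84.0, 107 and 46.6 in the pool, larva, head and tail. That of the gamma connexins was 214 ± 6.92 at 24 hpf and 143, 26.5, 18.4 and 127 in the same order. The beta connexins stood at 39.2 ± 3.69 at 24 hpf, 24.5 in larvae, 71.6 in the head and 15.1 in the tail. Delta connexins, among them those of electrical synapses, stood at 3.15 ± 0.422 at 24 hpf, 13.1 in larvae, 9.10 in the head and 0.160 in the tail. Thus by FPKM the gamma sum was high in the embryos and the tail, the alpha and beta sums were highest in the head, and the delta sum in the larva. Single genes made up much of some sums. cx43.4 alone stood at 208 FPKM at 24 hpf and 95.7 in the tail, and cx43 at 44.7 in larvae and 69.7 in the head. Some delta genes went against their sum. GJD4 and cx36.7 were at 1.29 and 0.294 FPKM on average at 24 hpf, against 0.392 and 0 in larvae. Sums of CPM by class were not computed.

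Of the 39 genes, 36 passed the filter on low counts, and cx36.7, cx28.1 and cx31.7 did not. cx34.5 passed only through the tail and cx52.6 and cx52.7 only through the head, so the filter favoured their higher calls there. cx27.5, cx28.9, cx32.2, cx32.3, cx39.4, cx40.8, cx41.8, cx47.1, cx50.5, cx55.5, GJC1, panx2 and PANX3 also reached the filter's level in no 24 hpf library. They passed only through the pool, larva, head or tail, so the filter favoured higher over lower calls for them too. The same filter applied to all genes, and its part in the share of higher calls was not tested. Each group was tested against 24 hpf with edgeR's quasi-likelihood test, calling a gene at a Benjamini-Hochberg adjusted p under 0.05 over all 21128 genes tested. Calls were repeated in up to 10 refits of the counts with other scalings, tools, filters, gene sets or samples, and those lost in a refit are named. In the pool 1 family gene was higher (cx50.5) and 1 lower (cx44.2), or 5.56% of the 36, against a background of 12.6% of all genes called. In the larva 15 rose and 4 fell (52.8% of the 36), against 50.4% of all genes. In the head 19 rose and 6 fell (69.4%), against 62.6%. In the tail 8 rose and 13 fell (58.3%), against 53.1%.

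In the larva, head and tail the share of called genes in the family was thus near, and a little above, that over all genes. In the pool it was lower, with 1 higher and 1 lower gene. The shares were not tested against those of all genes and cannot be read as particular to the family. By direction, 6.56% of all genes were higher and 6.054% lower in the pool. In larvae 41.7% of the 36 rose against 26.51% of all genes, and 11.1% fell against 23.91%. In the head 52.8% rose against 32.21%, and 16.7% fell against 30.42%. In the tail 22.2% rose against 25.63%, and 36.1% fell against 27.51%. The median log2 difference from 24 hpf, with genes at 0 set to their limit, was -0.03 in the pool, 1.18 in larvae, 1.81 in the head and -0.21 in the tail, where the medians of all genes were -0.08, -0.02, -0.01 and -0.11. These shares and medians include the genes named above that passed the filter only outside 24 hpf. The part of the filter in them was not tested. Scaling to library totals alone moved the log2 values upward by 0.26 in the pool, 0.48 in larvae, 0.55 in the head and 0.43 in the tail, and then 1985 of 2732, 7067 of 10241, 8364 of 12880 and 6911 of 11408 calls over all genes were higher, against 1386 of 2665, 5601 of 10653, 6806 of 13233 and 5415 of 11227 with TMM.

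The size of some changes depended on the quantity used. The log2 ratio to 24 hpf by deposited FPKM, computed after the other values were seen, exceeded that by CPM by a median over all genes of 0.31 in the pool, 0.45 in larvae, 0.42 in the head and 0.35 in the tail. Of the 67 called changes of family genes, 8 could not be set side by side because a value was 0. For 21 the fold by FPKM and by CPM differed more than 1.5 times, in cx23, cx28.9, cx30.3, cx34.5, cx35, cx39.9, cx40.8, cx44.2, gja3, GJC1 and PANX3. Relative to the median of all genes 8 changes did, in cx23, cx28.9, cx34.5, cx35 and cx50.5. None of the family changes set side by side turned its direction.

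**Figure D2:**
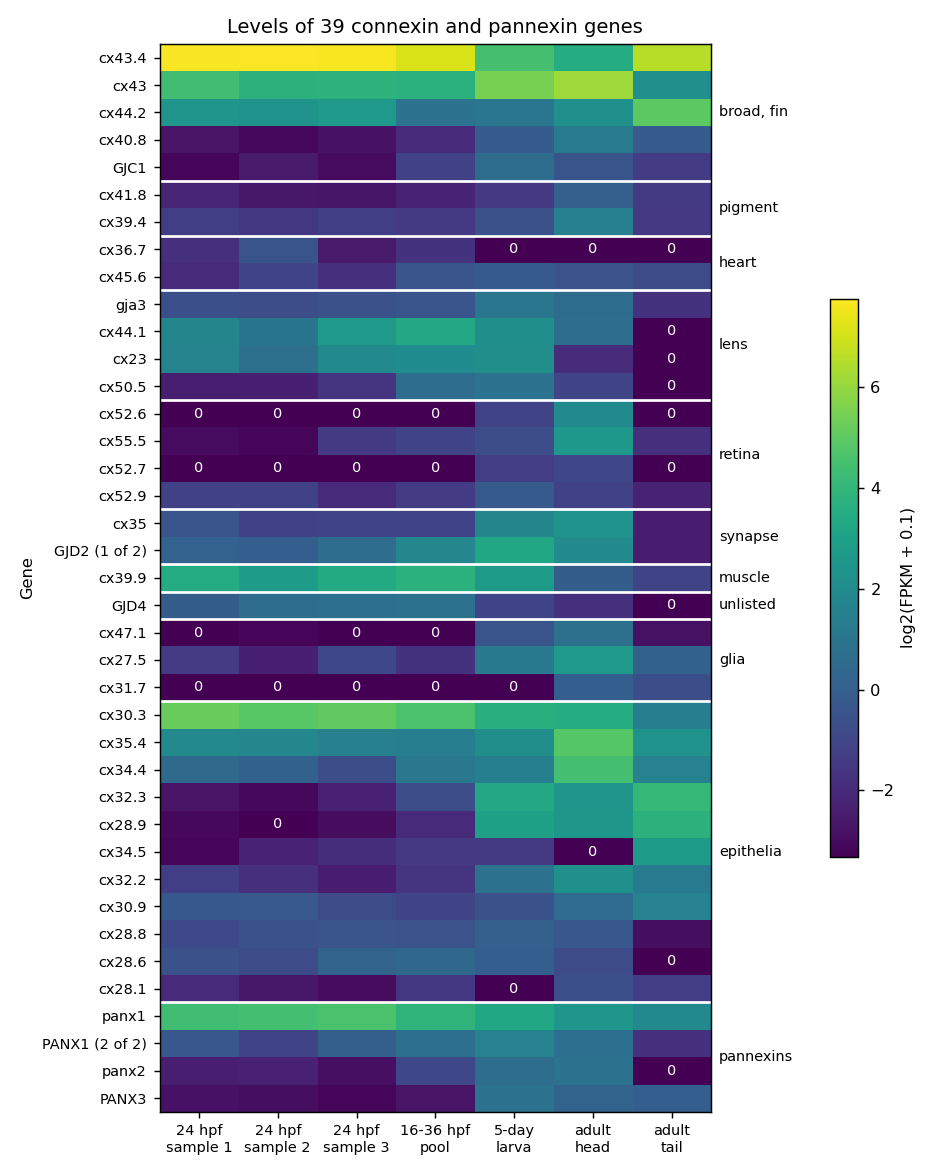
Each row is 1 of the 39 genes, grouped by known site or role, and each column 1 of the 7 libraries; colour gives log2(FPKM + 0.1) and a white 0 marks a gene listed at 0 FPKM. cx43.4 and cx43 are the brightest rows, 17 of the 39 genes reach their highest CPM in the head, and the lens gene cx44.1 and the retinal gene cx52.6 are at 0 in the tail. How many of all genes peak in the head was not computed.

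Of the widely used and fin connexins, cx43.4 was lower and cx43 higher in the larva and the head than at 24 hpf. cx43.4 stood at 722, 706 and 764 CPM in the 24 hpf samples (730.3 ± 30.0), 443 in the pool, 63.1 in larvae, 33.4 in the head and 286 in the tail. All of the other libraries lay below the whole 24 hpf range, the head lowest. On the log2 scale it fell by 3.53 ± 0.33 (SE) in the larva (edgeR adjusted p = 0.00035), by 4.45 ± 0.35 in the head (edgeR adjusted p = 0.00010) and by 1.35 ± 0.28 in the tail (edgeR adjusted p = 0.0064), whereas the pool did not pass. With the pool joined to the 24 hpf group the call in the tail was lost (edgeR adjusted p = 0.091). It varied least of the family at 24 hpf, with a coefficient of variation of 4.11%.

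For cx43 the 24 hpf libraries held 79.2, 51.8 and 58.1 CPM (63.0 ± 14.3), the pool 48.6, the larva 141, the head 226 and the tail 15.4. The larva and head were above, and the pool and tail below, every 24 hpf library. It rose by 1.16 ± 0.30 on the log2 scale in the larva (edgeR adjusted p = 0.016) and by 1.84 ± 0.29 in the head (edgeR adjusted p = 0.0016), and fell by 2.03 ± 0.37 in the tail (edgeR adjusted p = 0.0036). The larval call was lost when 24 hpf sample 2 was left out (edgeR adjusted p = 0.056) and when the pool was joined to 24 hpf. Its paralogue cx40.8 (gja1a) was at 0.112, 0.0828 and 0.0847 CPM at 24 hpf, 0.182 in the pool, 1.22 in larvae, 4.09 in the head and 1.24 in the tail. cx40.8 rose in the larva, head and tail, by 3.62 ± 0.75, 5.37 ± 0.66 and 3.65 ± 0.76 on the log2 scale (edgeR adjusted p = 0.0071, 0.00058 and 0.0066). In the tail cx43 thus fell while cx40.8 rose.

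The gamma connexin cx44.2 was highest in the tail. It stood at 13.9, 11.9 and 17.1 CPM at 24 hpf (14.3 ± 2.62), 3.09 in the pool, 3.14 in larvae, 8.49 in the head and 57.0 in the tail. Only the tail lay above, and the other groups below, every 24 hpf library. It fell in the pool and in the larva by 2.21 ± 0.40 and 2.18 ± 0.40 on the log2 scale (edgeR adjusted p = 0.020 and 0.0043) and rose by 2.00 ± 0.29 in the tail (edgeR adjusted p = 0.0015). The pool call was lost without 24 hpf sample 1, without sample 2 and with limma-voom (adjusted p up to 0.089), and the larval one with the pool joined to 24 hpf. Counts for cx44.2 are uncertain. A separate entry, CU694369.1, held 3 counts in the tail but 14.2 FPKM. One gene table names that entry gjc4a.1, the name that another gene table gives to cx44.2 itself. Whether these entries share reads was not tested. The egg coat genes were high in the same tail library and their part in these values was not tested.

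GJC1, the relative of mammalian connexin 45, was at 0.140, 0.166 and 0.169 CPM at 24 hpf, 0.819 in the pool, 3.14 in larvae, 1.47 in the head and 0.675 in the tail. It rose in the larva by 4.26 ± 0.64 and in the head by 3.17 ± 0.71 on the log2 scale (edgeR adjusted p = 0.0021 and 0.0069). Joining the pool to 24 hpf ended both calls, with log2 differences of 3.45 and 2.36. Altogether the 5 genes of this list gave 3 higher and 2 lower calls in the larva, 3 and 1 in the head, and 2 and 2 in the tail, where 50.4%, 62.6% and 53.1% of all genes were called.

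**Figure D3:**
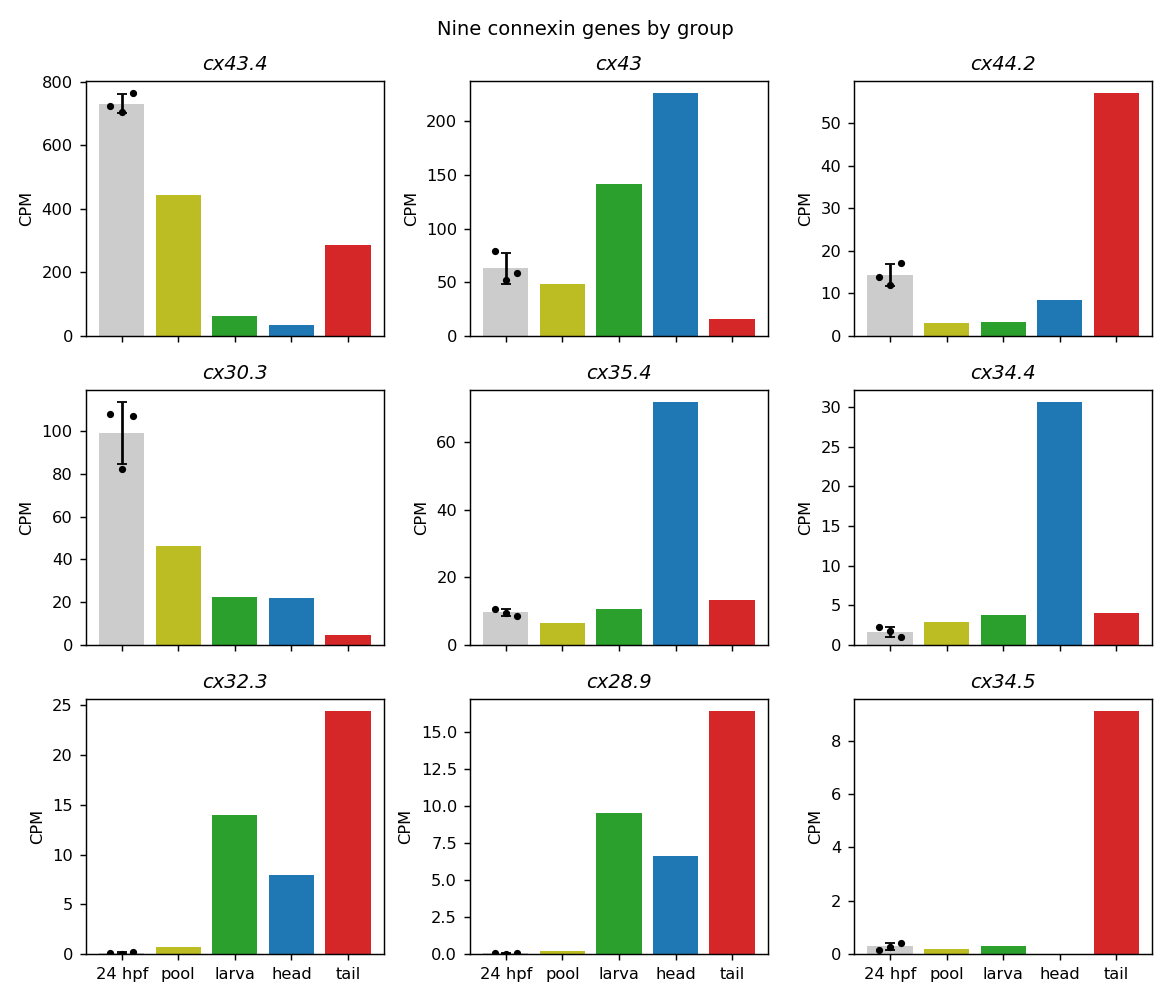
CPM (vertical axis, starting at 0, own scale in each panel) of 9 connexin genes in the 5 groups. The grey bar is the 24 hpf mean with its SD and the 3 samples as points, and each coloured bar is 1 library: cx43.4 and cx30.3 are highest at 24 hpf, cx43, cx35.4 and cx34.4 in the head, and cx44.2, cx32.3, cx28.9 and cx34.5 in the tail.

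Of the 39 genes, 18 lie in 7 groups of neighbours less than 50 kb apart. The largest holds 6 alpha connexins on chromosome 20, between positions 40746893 and 40791948 of Zv9, in the order cx43, cx32.2, cx28.1, cx28.9, cx32.3 and cx34.5. Levels within this stretch differed per length: at 24 hpf cx43 stood at 16.0 ± 3.72 FPKM and the other 5 at 0.197 FPKM or less on average. In the tail cx32.3 was at 16.6 FPKM, cx28.9 at 13.6 and cx34.5 at 6.52, all above cx43 at 4.61. In the head cx43 was at 69.7 FPKM, cx28.9 at 5.72, cx32.3 at 5.45 and cx34.5 at 0.

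cx32.3, named gja13.1 in the gene table, was at 0.112, 0.0276 and 0.198 CPM at 24 hpf, 0.728 in the pool, 14.0 in larvae, 7.97 in the head and 24.4 in the tail. Its neighbour cx28.9 (gja12.1) was at 0.0560, 0 and 0.0847 CPM at 24 hpf, 0.182 in the pool, 9.52 in larvae, 6.61 in the head and 16.4 in the tail. Both were low in every embryonic library and ordered tail, larva, head. cx32.3 rose by 6.89 ± 0.57, 6.08 ± 0.58 and 7.69 ± 0.57 on the log2 scale in the larva, head and tail (edgeR adjusted p = 0.00024, 0.00022 and 9.5e-05). cx28.9 rose by 7.50 ± 0.68, 6.97 ± 0.69 and 8.29 ± 0.67 (edgeR adjusted p = 0.00032, 0.00024 and 0.00013), and by FPKM its folds were 2.52 to 2.63 times larger than by CPM. These 6 calls held in all refits, although leaving out 24 hpf sample 3 moved the tail values to 8.32 and 8.89, and joining the pool to 24 hpf moved those of cx32.3 to 6.04, 5.23 and 6.84.

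cx34.5 (gja11), at the far end of the stretch, was at 0.140, 0.276 and 0.424 CPM at 24 hpf, 0.182 in the pool, 0.304 in larvae, 0 in the head and 9.11 in the tail. Only the tail lay above the 24 hpf libraries, and there it rose by 5.00 ± 0.65 on the log2 scale (edgeR adjusted p = 0.00090). The gene passed the filter on low counts only through the tail, so the filter favoured this call. It held in all refits, that without a filter among them. By FPKM the fold was 65.8, against 32.5 by CPM. The tail was at least 29.0-fold higher than the head. cx32.2 (gja13.2), next to cx43, was at 0.616, 0.221 and 0.141 CPM at 24 hpf, 0.182 in the pool, 1.92 in larvae, 5.56 in the head and 2.81 in the tail. It rose in those last 3 groups by 2.54 ± 0.84, 4.07 ± 0.76 and 3.09 ± 0.81 on the log2 scale (edgeR adjusted p = 0.040, 0.0032 and 0.016), and without 24 hpf sample 1 by 3.36, 4.89 and 3.91. Without sample 2 the calls in the larva and tail were lost (edgeR adjusted p up to 0.11 and 0.060), and the larval one also with 4 other refits. cx28.1, the member in the middle, was not tested and stayed between 0 and 0.629 CPM in every library.

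**Figure D4:**
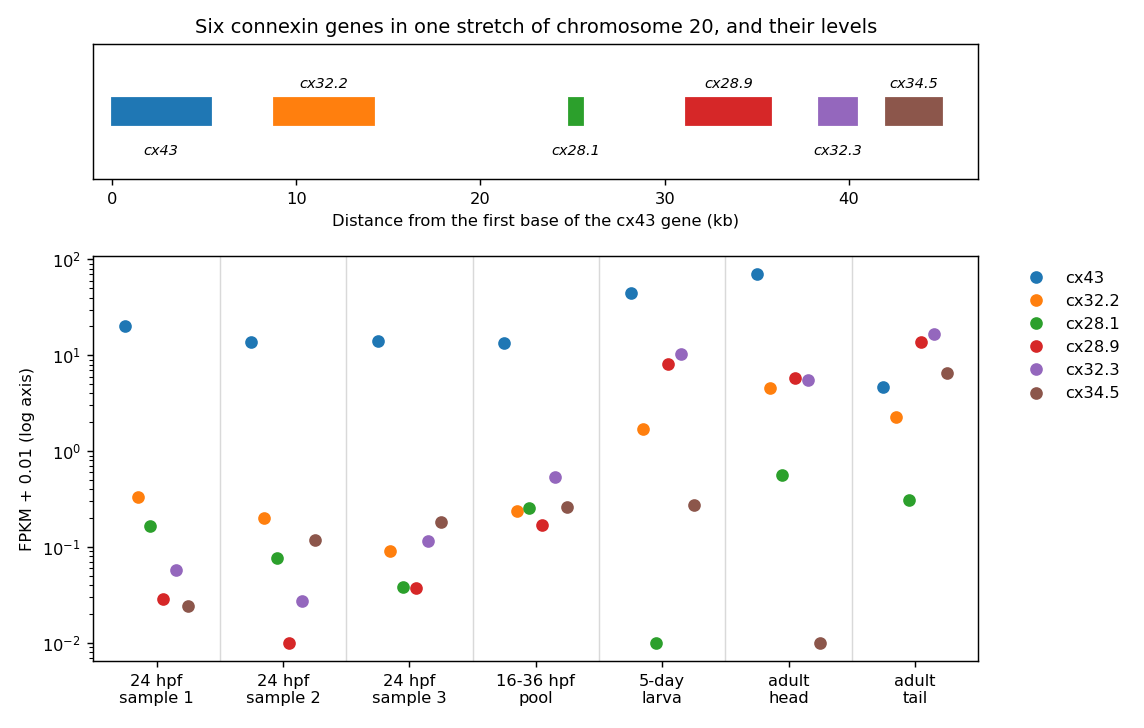
Above, the 6 connexin genes of the stretch on chromosome 20 are drawn to scale by distance from the first base of cx43 (kb); below, their FPKM + 0.01 (log axis) in each of the 7 libraries. cx43 is the highest of the 6 in every library except the tail, where cx32.3, cx28.9 and cx34.5 lie above it.

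The beta connexins cx34.4 and cx35.4 form a pair of neighbours on chromosome 17 (24671557 to 24682075 of Zv9) and both peaked in the head. cx35.4 was at 10.7, 9.55 and 8.61 CPM at 24 hpf (9.62 ± 1.04), 6.55 in the pool, 10.5 in larvae, 71.7 in the head and 13.3 in the tail. cx34.4 was at 2.24, 1.68 and 1.02 CPM at 24 hpf (1.65 ± 0.612), 2.91 in the pool, 3.75 in larvae, 30.6 in the head and 4.05 in the tail. For both genes the head stood above all other libraries. They rose there by 2.90 ± 0.26 and 4.21 ± 0.44 on the log2 scale (edgeR adjusted p = 0.00017 and 0.00029), and both calls held in all refits. The epidermal markers differed among themselves. krt5 was highest in the head, at 15137.5 CPM against 3554 to 5759 in the other libraries, whereas krt4 was at 4063 in the head and 16277 to 18627 at 24 hpf. The sum of the list was 19756 CPM in the head, 4948 in the tail and 20594 to 25091 at 24 hpf, and the part of these markers in the values was not tested.

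cx30.3, related to the skin and inner ear connexins GJB2 and GJB6 of mammals, was second to cx43.4 by FPKM in all embryonic libraries. It stood at 108, 82.6 and 107 CPM at 24 hpf (99.2 ± 14.4), 46.2 in the pool, 22.5 in larvae, 21.9 in the head and 4.84 in the tail. Each of the other libraries was below the 24 hpf range. It fell by 2.14 ± 0.33, 2.18 ± 0.33 and 4.36 ± 0.39 on the log2 scale in the larva, head and tail (edgeR adjusted p = 0.0022, 0.0013 and 0.00020). The larval call was lost with the pool joined to 24 hpf (edgeR adjusted p = 0.063). In all, the list of 11 skin, ear and epithelial connexins, of which 10 were tested, gave 3 higher and 1 lower call in the larva, 5 and 1 in the head, and 5 and 3 in the tail. Over all genes 50.4%, 62.6% and 53.1% were called in these groups.

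The remaining epithelial members were at 4.05 CPM or less in every library. cx30.9 was at 1.23, 1.16 and 0.988 CPM at 24 hpf, 0.546 in the pool, 0.709 in larvae, 1.78 in the head and 4.05 in the tail, where it was called higher by 1.84 ± 0.53 on the log2 scale (edgeR adjusted p = 0.024). cx28.8 was at 1.82, 1.57 and 2.77 CPM at 24 hpf and 1.55 to 2.31 CPM in the pool, larva and head, but had 1 count in the tail (0.112 CPM), where it was called lower (edgeR adjusted p = 0.015), 18.2-fold with an exact 95% counting interval of 3.24 to 723. cx28.6 was at 0.727, 0.552 and 1.47 CPM at 24 hpf and at 0 counts in the tail, at least 2.71-fold lower (edgeR adjusted p = 0.040). The calls of cx30.9 and cx28.6 were lost without 24 hpf sample 1, without sample 2 and with DESeq2 (adjusted p up to 0.15 and 0.16 over the refits). That of cx30.9 was also lost with the pool joined to 24 hpf, and that of cx28.6 with library totals only and with limma-voom. The call of cx28.8 was lost with DESeq2 and limma-voom (up to 0.094).

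Both connexins of the stripe pattern, cx41.8 (leopard) and cx39.4 (luchs), which act in pigment cells of the adult fish, were highest in the head. cx41.8 was at 0.560, 0.221 and 0.311 CPM at 24 hpf, 0.455 in the pool, 1.01 in larvae, 3.56 in the head and 1.12 in the tail. cx39.4 was at 0.616, 0.442 and 0.678 CPM at 24 hpf, 0.455 in the pool, 1.01 in larvae, 4.40 in the head and 0.450 in the tail. They rose in the head by 3.27 ± 0.69 and 2.92 ± 0.58 on the log2 scale (edgeR adjusted p = 0.0055 and 0.0042), in all refits, and passed in no other comparison. Pigment cell markers differed among themselves. Their sum was 225 CPM in the head and 44.4 in the tail against 335 to 717 at 24 hpf, and gch2 was at 28.83 CPM in the head against 190.2 to 383 at 24 hpf. ltk, in contrast, was at 13.1 CPM in the head against 1.10 to 1.81, and tyrp1b (77.8), xdh (4.82) and pnp4a (15.9) lay within their 24 hpf ranges. The part of these markers in the values was not tested.

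Among the heart connexins, cx36.7, the gene of the ftk heart mutant, was not tested; it was at 0.336, 0.966 and 0.254 CPM at 24 hpf and 0.273 in the pool, and at 0 counts in the larva, head and tail. cx45.6, a relative of the atrial connexin GJA5 of mammals, was at 0.476 to 1.08 CPM at 24 hpf and 1.01 to 1.62 in the other groups and passed in none. The heart marker sum was 70.97 to 117 CPM at 24 hpf, 148 in larvae, 323 in the head and 13.6 in the tail.

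Lens connexins were seen in every embryonic, larval and head library and were low or at 0 in the tail. cx44.1 was at 13.1, 6.29 and 25.3 CPM at 24 hpf (14.9 ± 9.65), 30.8 in the pool, 11.9 in larvae, 3.67 in the head and 0 in the tail. Its pool value was above and its head value below all 24 hpf libraries, but only the tail passed, at least 44.0-fold lower (edgeR adjusted p = 0.0046). cx23 was at 5.90, 2.87 and 7.46 CPM at 24 hpf (5.41 ± 2.33), 2.64 in the pool, 3.04 in larvae, 0.105 in the head and 0 in the tail. With 1 count in the head it was 51.4-fold lower there (exact 95% counting interval 9.19 to 2035, edgeR adjusted p = 0.0046), or 16.5-fold by FPKM, and at least 16.0-fold lower in the tail (edgeR adjusted p = 0.0040). Each of these 3 calls was lost with limma-voom (adjusted p = 0.20 for cx44.1, 0.13 for cx23 in the head and 0.12 in the tail).

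Another lens connexin, cx50.5, was at 0.224, 0.193 and 0.763 CPM at 24 hpf (0.393 ± 0.320), 4.91 in the pool, 5.97 in larvae, 1.36 in the head and 0 in the tail. It rose by 3.63 ± 0.76 on the log2 scale in the pool and by 3.91 ± 0.75 in the larva (edgeR adjusted p = 0.030 and 0.0054). The pool call, the only one higher there, was lost without 24 hpf sample 1, without sample 2 and with limma-voom (adjusted p up to 0.11), the larval one with the pool joined to 24 hpf, and without sample 3 the values were 4.43 and 4.62. gja3, active in lens and heart, was at 3.11, 2.76 and 3.33 CPM at 24 hpf (3.07 ± 0.288), 3.28 in the pool, 6.99 in larvae, 5.24 in the head and 0.675 in the tail. It was called higher in the larva by 1.19 ± 0.41 (edgeR adjusted p = 0.047), a call lost in 7 of 10 refits, among them each that left out 1 of the 24 hpf samples (adjusted p up to 0.20), and fell by 2.17 ± 0.59 on the log2 scale in the tail (edgeR adjusted p = 0.019), a call lost without sample 1, with DESeq2 and with limma-voom (up to 0.067).

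The lens crystallin markers summed to 151, 49.4 and 209 CPM at 24 hpf, 573 in the pool, 1550 in larvae, 479 in the head and 1.35 in the tail, where cryaa and crygm2d1 were at 0. They differed among themselves in the head. cryaa (271 CPM) and cryba2a (110) lay above their 24 hpf ranges there, and crybb1 (79.2) and crygn2 (11.6) within. cryba1b (7.34) lay below its range, and crygm2d1 was at 0. Of the 3 samples of 24 hpf, sample 2 was the lowest for the crystallins and also for cx44.1, cx23, gja3 and cx50.5.

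Among the connexins of retinal horizontal cells, cx52.6, cx52.7 and cx55.5 were highest in the head and cx50.5 and cx52.9 in the larva. cx52.6 was at 0 counts in all 3 libraries of 24 hpf, in the pool and in the tail, and at 0.608 CPM in the larva and 7.23 in the head. Against the limit of 3 counts over the 24 hpf libraries it was at least 21.7-fold higher in the larva (edgeR adjusted p = 0.012) and at least 259-fold higher in the head (edgeR adjusted p = 0.00085), in all refits. cx52.6 passed the filter on low counts only through the head, so the filter favoured its call there. cx55.5 was at 0.0560, 0.0276 and 0.706 CPM at 24 hpf, 0.910 in the pool, 1.01 in larvae, 11.3 in the head and 0.337 in the tail. It rose in the head by 5.40 ± 1.14 on the log2 scale (edgeR adjusted p = 0.0053), in all refits, and by 7.79 without 24 hpf sample 3, which alone was high.

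cx52.7 had 1 count at 24 hpf, in sample 1, and none in the pool or tail, and was at 0.608 CPM in the larva and 0.944 in the head. Both were called higher (edgeR adjusted p = 0.017 and 0.0061), with ratios of 65.2 (exact 95% counting interval 7.91 to 3001) and 101 (14.0 to 4441). cx52.7, too, passed the filter only through the head. The call in the larva was lost with DESeq2 and without sample 2, and that in the head with DESeq2 (adjusted p = 0.21 at most in the larva and 0.13 in the head). cx52.9 lay between 0.450 and 2.84 CPM in all libraries and passed nowhere. With cx50.5, which is also known from horizontal cells, the 5 genes of this list gave 3 higher calls in the larva and 3 in the head, where 26.51% and 32.21% of all genes were higher. In the tail edgeR called 0 of them, and 0 had an unadjusted p under 0.05, where 53.1% of all genes were called. cx52.6 and cx52.7 had 0 counts in the tail and no more than 1 at 24 hpf, so a lower call was not possible. The 24 hpf mean of cx50.5, 0.393 CPM, was near the tail's limit of 0.337 CPM for a count of 0. No conclusion on the tail is drawn from these genes. The 4 markers listed for horizontal and amacrine cells summed to 22.8 to 33.83 CPM at 24 hpf, 95.4 in the pool, 134.6 in larvae, 63.4 in the head and 8.10 in the tail, so that they were highest in the larva. Photoreceptor markers were at 3162 CPM in the larva and 5467 in the head and at 2.73 to 4.06 in the other libraries.

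The delta connexins cx35 and GJD2 (1 of 2), both relatives of the neuronal connexin 36 of mammals that forms electrical synapses, differed in opposite directions in head and tail. cx35 was at 2.57, 1.38 and 1.84 CPM at 24 hpf (1.93 ± 0.602), 0.546 in the pool, 5.06 in larvae, 7.34 in the head and 0.112 in the tail. GJD2 (1 of 2) was at 1.99, 1.49 and 2.94 CPM at 24 hpf (2.14 ± 0.735), 6.37 in the pool, 13.1 in larvae, 5.35 in the head and 0.112 in the tail. Values in the head were above, and those in the tail below, all 24 hpf libraries for both, and the larva was the highest library for GJD2 (1 of 2) and the head for cx35.

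cx35 rose in the head by 1.92 ± 0.50 on the log2 scale (edgeR adjusted p = 0.013). Its boundaries differ between the annotations, and by FPKM it was 10.9-fold higher in the head and 5.78-fold lower in the tail, against 3.80-fold and 17.2-fold by mean CPM. GJD2 (1 of 2) rose in the larva by 2.61 ± 0.45 (edgeR adjusted p = 0.0036) and in the head by 1.32 ± 0.49 (edgeR adjusted p = 0.049). In the tail, with 1 count each, cx35 was 17.1-fold lower (exact 95% counting interval 3.04 to 680.3) and GJD2 (1 of 2) 19.0-fold lower (3.37 to 752), with edgeR adjusted p = 0.014 and 0.011. The head call of GJD2 (1 of 2) was lost in 7 of 10 refits, among them those without sample 1 and without sample 2 (adjusted p up to 0.47), and its larval call with the pool joined to 24 hpf. That of cx35 in the head was lost with DESeq2 and with the pool joined (up to 0.053), both tail calls with limma-voom, and that of cx35 in the tail also with the pool joined (up to 0.11). Summed neuronal markers were at 218 to 252 CPM at 24 hpf, 464 in the pool, 1251 in larvae, 1816 in the head and 27.8 in the tail.

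Connexins listed for myelin-forming glia were also highest in the head. cx47.1 had 1 count over the 24 hpf libraries, in sample 2, and none in the pool, and was at 1.62 CPM in larvae, 4.09 in the head and 0.112 in the tail. Larva and head were called higher (edgeR adjusted p = 0.0024 and 0.00053), with ratios of 174 (exact 95% counting interval 27.0 to 7295) and 439 (74.3 to 17782), in all refits. cx27.5, a relative of GJB1 of Schwann cells, was at 0.392, 0.138 and 0.847 CPM at 24 hpf, 0.182 in the pool, 2.73 in larvae, 7.65 in the head and 1.24 in the tail. cx27.5 rose in the larva by 2.56 ± 0.85 and in the head by 4.04 ± 0.79 on the log2 scale (edgeR adjusted p = 0.041 and 0.0038), and without sample 3 by 3.16 and 4.73. Its larval call was lost in 5 of 9 refits, among them those without sample 1 and without sample 2 (adjusted p up to 0.10). The other GJB1 relative, cx31.7, was at 0 counts in the embryos and larva, 0.839 CPM in the head and 0.225 in the tail, and was not tested. Myelin markers summed to 1717 CPM in the head and 128 to 360.2 CPM elsewhere, but the markers went opposite ways. mbp was at 0 at 24 hpf, 0.182 CPM in the pool, 63.7 in larvae, 1166 in the head and 68.6 in the tail, whereas plp1a was at 189.6 to 340.3 CPM at 24 hpf, 18.6 in larvae and 7.44 in the head. The part that the lens, photoreceptor, horizontal cell, neuronal and myelin markers have in the values of these connexins was not tested.

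The muscle connexin cx39.9 was second to cx43 among the alpha connexins at 24 hpf, with 9.63 ± 2.49 FPKM. It stood at 29.6, 17.4 and 32.7 CPM at 24 hpf (26.6 ± 8.06), 26.1 in the pool, 11.8 in larvae, 1.47 in the head and 0.675 in the tail. Both adult libraries lay far below the 24 hpf range. It fell by 4.17 ± 0.58 in the head and by 5.29 ± 0.65 in the tail on the log2 scale (edgeR adjusted p = 0.00092 and 0.00073), in all refits. Fast muscle markers summed to 3175 to 7545 CPM at 24 hpf, 22394 in larvae, 13920.3 in the head and 10858 in the tail. Markers of slow muscle were not listed, and the part of muscle markers in the values of cx39.9 was not tested. GJD4, a delta connexin found in muscle of mice, was at 1.87, 3.26 and 3.47 CPM at 24 hpf (2.87 ± 0.868), 2.73 in the pool, 0.810 in larvae, 0.315 in the head and 0 in the tail. It was 9.12-fold lower in the head (3 counts, exact 95% counting interval 3.09 to 44.5, edgeR adjusted p = 0.016) and at least 8.50-fold lower in the tail (edgeR adjusted p = 0.0050), and both calls were lost with limma-voom (adjusted p = 0.10 and 0.065).

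Of the 4 pannexins panx1 fell, panx2 and PANX3 rose, and PANX1 (2 of 2) was not called. panx1, the release channel for ATP, was at 39.6, 39.3 and 51.7 CPM at 24 hpf (43.5 ± 7.03), 25.8 in the pool, 16.9 in larvae, 9.86 in the head and 6.86 in the tail. Every other library was below the 24 hpf range. panx1 fell by 1.36 ± 0.32, 2.14 ± 0.34 and 2.66 ± 0.36 on the log2 scale in the larva, head and tail (edgeR adjusted p = 0.012, 0.0017 and 0.0011), and the first of these was lost with the pool joined to 24 hpf (0.12).

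panx2, a pannexin of the central nervous system in mammals, was at 0.308, 0.359 and 0.113 CPM at 24 hpf, 1.00 in the pool, 3.54 in larvae, 3.98 in the head and 0 in the tail. PANX3, a pannexin of bone and skin in mammals, was at 0.0839, 0.0828 and 0.0565 CPM at 24 hpf, 0.0910 in the pool, 3.04 in larvae, 1.78 in the head and 1.46 in the tail. Both were higher in the larva and head than in any embryonic library. panx2 rose in the larva and head by 3.74 ± 0.70 and 3.91 ± 0.69 on the log2 scale (edgeR adjusted p = 0.0047 and 0.0026), and the larval call was lost with the pool joined to 24 hpf (0.066). PANX3 rose in the larva, head and tail by 5.24 ± 0.70, 4.47 ± 0.74 and 4.19 ± 0.77 (edgeR adjusted p = 0.0013, 0.0019 and 0.0037), in all refits. The second PANX1 gene, PANX1 (2 of 2), was at 1.26, 0.690 and 1.92 CPM at 24 hpf, 2.00 in the pool, 3.54 in larvae, 1.89 in the head and 0.225 in the tail, and passed in no comparison.

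Head and tail share the annotation and a similar depth and were compared directly, without a test because each is 1 library. Among the 32 family genes with at least 1 CPM in either, 15 were 4-fold or more higher in the head and 3 lower, on log2(CPM + 0.5). Over all 20695 genes compared the same size was reached by 31%, higher in 18.35% and lower in 12.67%. The 3 genes lower in the head were cx34.5, cx44.2 (6.71-fold, exact 95% counting interval 5.30 to 8.60) and cx43.4 (8.54-fold, 7.60 to 9.63). The genes with the most counts among the 15 higher ones were cx43 (14.7-fold, 12.4 to 17.6), cx35.4 (5.40-fold, 4.44 to 6.63), cx34.4 (7.56-fold, 5.34 to 11.01) and cx30.3 (4.53-fold, 3.25 to 6.45). The other 11 were cx52.6, cx55.5, cx27.5, cx35, GJD2 (1 of 2), gja3, cx39.4, cx47.1, panx2, cx44.1 and cx28.8. By the lists used above, these are 2 lens, 2 horizontal cell, 2 electrical synapse, 2 glial and 1 pigment pattern gene, 1 pannexin and 1 epithelial gene.

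**Figure D5:**
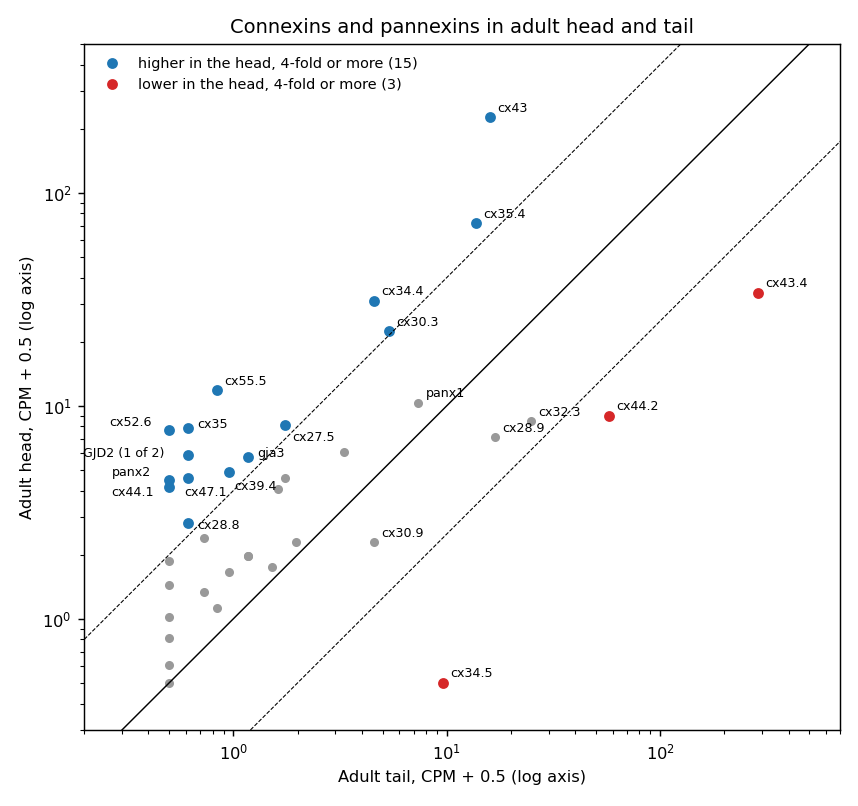
Each point is 1 of the 39 genes, with CPM + 0.5 in the adult tail (horizontal, log axis) and in the adult head (vertical, log axis), 1 library each; the solid line marks equal values and dashed lines 4-fold. Blue points are the 15 genes 4-fold or more higher in the head and red points the 3 lower ones, cx43.4, cx44.2 and cx34.5.

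The larva and the pool also share their annotation. Of 32 genes compared, 6 were 4-fold or more higher in the larva and 1 lower, against 10.25% and 2.547% of 19588 genes, or 12.8% in all. The lower one was cx43.4 (7.03-fold, exact 95% counting interval 6.47 to 7.65). The higher ones were cx28.9 (52.3-fold, 14.1 to 438), cx32.3 (19.2-fold, 9.47 to 45.4), PANX3 (33.4-fold, 5.55 to 1362), cx27.5 (15.0-fold, 3.78 to 130.4), cx35 (9.27-fold, 3.97 to 26.5) and cx47.1 (at least 5.94-fold). The order of cx43.4, cx32.3 and cx28.9 between larva and embryo was thus the same within 1 annotation. With a pseudocount of 1 CPM only 3 genes passed, 2 higher and 1 lower.

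The 3 samples of 24 hpf also differed among themselves. For the 18 family genes with a mean of at least 1 CPM the median coefficient of variation was 30.28% (range 4.11% to 64.7%), against 18.2% over 16628 genes. Several of the 18 lay near 1 CPM, such as cx30.9 at a mean of 1.13 and cx52.9 at 1.25. The coefficient depends on the level and the sets were not matched by it. The difference thus cannot be read as particular to the family. Sample 2 was the lowest of the 3 for 13 of the 18 and the highest for none, while it was lowest for 38.6% of all genes. The widest of the 18 was the lens connexin cx44.1. Sample 2 was also lowest in summed crystallins (49.4 CPM against 151 and 209), fast muscle markers (3175 against 6620.04 and 7545) and pigment markers (335 against 613 and 717). It was lowest, too, for the photoreceptor, horizontal cell, neuronal and myelin lists. Other lists went the opposite way, with sample 2 highest for heart (117 against 97.2 and 70.97) and epidermis (25091 against 20594 and 23983). The same held for the oocyte, plasma and liver, and inner ear lists. Sample 2 lay between the others for cartilage and bone and for notochord. The part of these markers in the spread was not tested.

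Of 28 genes listed for scaffolds of gap junctions, receptors downstream of pannexins and genes tied to connexins in fin and stripe growth, 24 were found and 22 tested. In the pool 2 were higher and 1 lower, in the larva 5 and 6, in the head 6 and 4, and in the tail 4 and 9, where 12.6%, 50.4%, 62.6% and 53.1% of all genes were called. The median log2 differences were -0.17, -0.19, 0.24 and -0.92, against -0.08, -0.02, -0.01 and -0.11 over all genes. The purinergic receptor p2rx4a had the largest of these changes, from 0.588, 0.856 and 0.593 CPM at 24 hpf to 59.9 in the tail, a log2 rise of 6.45 ± 0.35 (edgeR adjusted p = 2.9e-05). p2rx3a, another ATP receptor, was at 9.88, 8.09 and 8.73 CPM at 24 hpf and 0.337 in the tail, where it fell by 4.70 ± 0.59 on the log2 scale (edgeR adjusted p = 0.00078). The tail was thus the highest library for p2rx4a and the lowest for p2rx3a. Egg coat and liver genes were high in the same tail library, and their part in these values was not tested. cdh2, the neural cadherin, was at 580, 631 and 609 CPM at 24 hpf and 46.6 in the tail, where it fell by 3.70 ± 0.33 on the log2 scale (edgeR adjusted p = 0.00020). kcnj13, the potassium channel of the stripe pattern, stood at 30.0, 27.52 and 19.0 CPM at 24 hpf and 1.69 in the tail, where it fell by 3.91 ± 0.50 (edgeR adjusted p = 0.00086), and at 2.94 in the head, where it fell by 3.12 ± 0.47 (edgeR adjusted p = 0.0012). These falls depended on the quantity: its FPKM were 3.61, 3.35 and 2.18 at 24 hpf, 2.72 in the pool, 4.28 in larvae, 1.94 in the head and 1.14 in the tail. By FPKM kcnj13 was thus 1.57-fold lower in the head and 2.68-fold lower in the tail, against 8.69-fold and 15.1-fold by mean CPM, and its call of lower in the larva turned to the other direction.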

How the data were processed

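The submitters' processing notes name Zv9 as the genome, TopHat 1.4.1 with Bowtie 0.12.7, HTSeq 0.5.3p3, Cufflinks 1.3.0 and CASAVA 1.4, without roles. Their settings, strand handling and annotation releases: not given in the sources used here. RNA was extracted with Trizol and libraries made with Illumina's TruSeq RNA kit, per the labels' protocols. The authors deposited raw counts per gene with 5 HTSeq counters, which were left out of library sizes, and FPKM per gene, per the file headers. Of the gene counts and counters together, reads without a unique alignment made up 14.2% to 39.6%, reads on no gene 6.59% to 13.7% and ambiguous reads 0.733% to 1.90%. Files came with 7 of 16 sample records; the other 9, technical runs and read ends of the 24 hpf samples, were not used here.

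Counts of 28364 shared IDs were fitted in 1 model of 5 groups with edgeR 4.0.16 in R 4.3.3 (TMM, filterByExpr with a minimum count of 10, glmQLFit and glmQLFTest), with 2 residual degrees of freedom, all from 24 hpf; a lone library is assumed to vary like those. Nothing in the labels beyond the words biological sample says how the 3 samples were obtained. The SE is the log2 change divided by the square root of F. Genes at 0 were compared with a limit of 3 counts, and count ratios carry exact 95% intervals; both cover counting error only. Neighbours are less than 50 kb apart. All members may be named, and values for each library are given for those with at least 10 CPM in any library or a called log2 change of at least 3, and for others where a comparison needs them. Gene names and relations to mammalian genes come from gene tables. Paralogues could share reads. The members and lists were chosen with earlier results of these data known. The fit was tested on simulated data. Alternatives were DESeq2 1.42.0 and limma 3.58.1 (voom), other scalings, no filter, genes of equal interval, the pool joined to 24 hpf, each 24 hpf sample left out, and FPKM with a pseudocount.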

Additional observations from a re-analysis of the deposited data

Results flagged for a closer look

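Some genes differed from 24 hpf in opposite directions in different groups; the difference between the groups was not itself tested, and all comparisons share the 24 hpf samples. This held for 5 of the 39 genes, of which 36 were tested. The same share over all genes tested was not computed, so the count cannot be read as particular to the family. gja3 was called higher in the larva (6.99 CPM) and lower in the tail (0.675 CPM). cx43 was called higher in the larva (141 CPM) and head (226 CPM) and lower in the tail (15.4 CPM). GJD2 (1 of 2) was called higher in the larva (13.1 CPM) and head (5.35 CPM) and lower in the tail (0.112 CPM). cx35 was called higher in the head (7.34 CPM) and lower in the tail (0.112 CPM). cx44.2 was called lower in the pool (3.09 CPM) and larva (3.14 CPM) and higher in the tail (57.0 CPM). Not all of these calls held in every refit. The larval call of gja3 and the head call of GJD2 (1 of 2) each held in 3 of 10, and the tail call of gja3 in 7 of 10. Both calls of cx35 and the larval call of cx43 held in 7 of 9, and the pool call of cx44.2 in 6 of 9. The larval and tail calls of GJD2 (1 of 2) and the larval call of cx44.2 held in 9 of 10.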

How the results depend on the processing

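No paired analysis was possible because only the 24 hpf samples carry numbers and each other group is 1 library. All 67 called changes of family genes kept their sign in every refit of counts; the call itself held in all refits for 0 of 2 in the pool, 7 of 19 in the larva, 19 of 25 in the head and 10 of 21 in the tail. Leaving out a 24 hpf sample gave 144 (without sample 2) to 4825 (without sample 3) calls over all genes in the pool, 457 without sample 1, and 0 (6 and 7 at an unadjusted p under 0.05 without samples 1 and 2) to 7 family calls there. With limma-voom the pool had 3 calls over all genes, 0 in the family (7 at an unadjusted p under 0.05), and the tail 13 in the family; DESeq2 gave 4 family calls in the pool. With genes of equal interval only, fewer were tested and the calls over all genes and in the family were 1049 and 1 in the pool, 4874 and 4 in the larva, 6093 and 8 in the head and 4976 and 9 in the tail. With the pool joined to 24 hpf they were 3799 and 8 in the larva, and 8359 in the head and 6671 in the tail over all genes. Between larva and pool a pseudocount of 1 CPM left 3 genes past 4-fold. On deposited FPKM with a pseudocount of 0.1 or 1, 53 and 61 of the 67 changes moved by more than the replicate spread, none to the other sign. Apart from what the different sets of genes and samples imply, the cause was not tested. Genes near 1 CPM rest on about 10 counts in the single libraries, and these have no replicate error.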

Other observations

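Values of genes outside the comparisons follow. The 3 CX3CR1 entries taken by the spelling of their names were low: CX3CR1 (1 of 3) and CX3CR1 (2 of 3) were at 0.839 CPM or less in every library, and CX3CR1 (3 of 3) was at 0.0839, 0.0552 and 0.0282 CPM at 24 hpf, 0 in the pool, 0.203 in larvae, 1.99 in the head and 3.04 in the tail.

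A gene table gives connexin names to 5 further gene IDs that the naming rule did not take. Of these, CR628323.3 (gje1b) was at 0.339 CPM or less and AL928851.1 (gjd5) at 0.608 CPM or less in every library. CU694369.1 (gjc4a.1) was at 0.476, 0.359 and 1.24 CPM at 24 hpf, 0.819 in the pool, 0.810 in larvae, 0 in the head and 0.337 in the tail, while its FPKM were 1.21, 1.35 and 1.33 at 24 hpf, 2.47 in the pool, 3.00 in larvae, 2.36 in the head and 14.2 in the tail. For this entry the order of the libraries thus differed between counts and FPKM, and another gene table gives its name to cx44.2. The other two were not analysed here.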
